A study of Mus musculus with 9 samples.

Results

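Lymphoid transcription factor genes were followed through 9 ATAC-seq peak lists from mouse blood stem and progenitor cells. The 10 genes were Ikzf1, Ikzf2, Ikzf3, Notch1, Tcf7, Satb1, Tcf3, Ebf1, Pax5 and Bcl11a. A region is a stretch where overlapping peaks of the 9 lists were merged, and it was given to the gene that holds its midpoint, or else to the protein-coding gene with the nearest end within 100 kb. By this rule the genes had 178 regions, of which 38 had a peak in 1 library only, and the other 140 were analysed out of 95786 regions held by 2 or more libraries. A library "holds" a region when its list has a peak there. The rule takes the genes by name and uses no measured value.

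ATAC-seq marks open chromatin, because the Tn5 transposase cuts and tags DNA that is not packed away. The cells were long-term haematopoietic stem cells (LT-HSCs), which sustain blood formation, and multipotent progenitors (MPPs), their more proliferative descendants, both sorted from bone marrow of C57BL/6 mice. Mice labelled RXRa/RXRb-KO (KO), which lack the nuclear receptors RXRα and RXRβ, were set against wild-type (WT) mice, and the series asked what this loss does to stem cells. For LT-HSCs there were 3 KO libraries, numbered 1, 2 and 4, beside 2 from WT mice, numbered 2 and 3. For MPPs there were KO libraries 1 and 2 beside WT libraries 1 and 2. The labels name pooled animals for the sort, but neither the age of the mice nor the way the alleles were deleted, and they do not say that libraries of a group came from separate pools. The p-values therefore measure only how these libraries vary, which may be technical. In such bulk samples, fewer open cells and a less open site in each cell cannot be told apart.

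Blood progenitors take on a lymphoid fate in steps, and these genes act at different points of that path. Ikzf1, Ikzf2 and Ikzf3 encode the zinc-finger factors Ikaros, Helios and Aiolos, of which Ikaros acts earliest and is needed for lymphoid development. Notch1 encodes the receptor whose cleaved inner domain directs progenitors to the T lineage, Tcf7 encodes the T lineage factor TCF-1 that Notch signals turn on, and Satb1 encodes a chromatin organiser of thymocytes. In the B lineage, Tcf3 encodes E proteins that act early, Ebf1 the early B cell factor and Pax5 the factor that commits cells to the lineage. Bcl11a encodes a zinc-finger repressor that is needed for B cell development and that silences fetal globin genes in erythroid cells.

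The lists differed in length and in likeness, and both bear on every value that follows. LT-HSC lists held 22690 to 71586 peaks and MPP lists 78189 to 86353, and the read depth of each library is unknown. Over the 13908 regions held by all 9 libraries, the ranks of peak strength correlated at 0.964 to 0.983 (Spearman) between MPP libraries. LT-HSC KO 4 stood apart from the other KO stem cell libraries: its ranks correlated at 0.532 with KO 1 and 0.620 with KO 2, but at 0.876 with WT 2 and 0.776 with WT 3, while KO 1 and KO 2 correlated at 0.854 with each other. Results that rest on this library are given with and without it. As a check of the cell labels, the 112 regions of 8 stem cell marker genes were held at 16.1% to 79.5% in LT-HSC and 60.7% to 68.8% in MPP libraries. Of these regions, 3 had a peak in all 5 stem cell lists and in none of the MPP lists, and 9 had the reverse pattern. Among all analysed regions these patterns were seen in 0.24% and 17.3%. Regions of 6 MPP marker genes were held at 19.6% to 65.2% in LT-HSC and 84.8% to 89.1% in MPP libraries, close to all analysed regions, which were held at 22.7% to 65.5% in LT-HSC and 78.1% to 84.7% in MPP libraries.

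The start sites of these genes differed in where peaks fell, and 5 windows are printed because they show the range, from a peak in every progenitor library to no peak in any library. Windows run from 250 bases before to 50 bases after a start listed by RefSeq (GRCm38.p6), 5′ to 3′ on the gene's strand. They exist here for 8 of the 10 genes, with 15 windows, of which 8 were overlapped by a peak in at least 1 library. Capitals mark matches on either strand to the E-box CANNTG, bound by E proteins, to TTCAAAG of the TCF family and to TGTGGT of the RUNX family, and no matches in the printed windows overlap one another.
Tcf3: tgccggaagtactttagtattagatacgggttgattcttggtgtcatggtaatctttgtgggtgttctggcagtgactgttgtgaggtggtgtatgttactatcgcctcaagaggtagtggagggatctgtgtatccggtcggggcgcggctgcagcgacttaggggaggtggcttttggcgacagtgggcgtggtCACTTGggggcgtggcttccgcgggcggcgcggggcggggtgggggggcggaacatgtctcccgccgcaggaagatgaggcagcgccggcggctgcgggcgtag
Notch1: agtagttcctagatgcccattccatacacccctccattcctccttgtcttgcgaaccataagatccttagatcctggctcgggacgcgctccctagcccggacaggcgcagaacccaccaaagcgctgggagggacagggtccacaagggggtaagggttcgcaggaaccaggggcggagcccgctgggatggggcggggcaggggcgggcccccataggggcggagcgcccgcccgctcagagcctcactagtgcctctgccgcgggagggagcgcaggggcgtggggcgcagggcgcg
Tcf7: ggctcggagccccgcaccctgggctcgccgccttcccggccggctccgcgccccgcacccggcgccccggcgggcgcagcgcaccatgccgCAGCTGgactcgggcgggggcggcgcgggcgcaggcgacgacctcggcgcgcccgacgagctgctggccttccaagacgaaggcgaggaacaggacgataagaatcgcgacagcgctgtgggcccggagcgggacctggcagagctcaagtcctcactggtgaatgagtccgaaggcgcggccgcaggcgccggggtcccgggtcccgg
Ebf1: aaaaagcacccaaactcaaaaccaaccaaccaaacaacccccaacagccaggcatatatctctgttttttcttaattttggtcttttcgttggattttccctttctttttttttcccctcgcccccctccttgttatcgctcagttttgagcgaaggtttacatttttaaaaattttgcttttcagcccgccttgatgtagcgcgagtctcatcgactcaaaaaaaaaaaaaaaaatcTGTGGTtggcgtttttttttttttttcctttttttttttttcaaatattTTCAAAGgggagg
Pax5: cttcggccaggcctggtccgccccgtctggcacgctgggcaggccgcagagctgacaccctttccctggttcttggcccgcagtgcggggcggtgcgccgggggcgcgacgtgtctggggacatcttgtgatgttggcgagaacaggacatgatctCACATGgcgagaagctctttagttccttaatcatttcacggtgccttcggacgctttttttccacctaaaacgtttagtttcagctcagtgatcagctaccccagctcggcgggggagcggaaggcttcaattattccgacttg
The Tcf3 window (chr10:80433586-80433885, minus strand) was overlapped by a peak of every LT-HSC library except KO 2 and of every MPP library, and holds 1 E-box. The Notch1 window (chr2:26503773-26504072, minus strand) was overlapped in LT-HSC KO 4, WT 2 and WT 3 and in all 4 MPP libraries, and holds none of the motifs searched. The Tcf7 window (chr11:52282965-52283264, minus strand), which lies inside the gene's outer bounds, was overlapped in no LT-HSC library and in MPP KO 2, WT 1 and WT 2, and holds 1 E-box. No library had a peak over the first Ebf1 window (chr11:44617850-44618149, plus strand), which holds a TCF and a RUNX match, or over the Pax5 window (chr4:44710645-44710944, minus strand), which holds 1 E-box. Among all 32851 windows of the table, 72.3% hold CANNTG, 5.14% TTCAAAG and 16.8% TGTGGT, so that an E-box is the usual state. The Ikaros core TGGGAA (25.6% of all windows) and the EBF motif, TCCC and GGGA spaced by 2 bases (0.904%), were also searched and are absent from the 5 printed windows. GC content was 61.7% at Tcf3, 68.3% at Notch1, 76.3% at Tcf7, 36.7% at Ebf1 and 59% at Pax5, against a median of 52.7%.

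Fewer regions of these genes were held in LT-HSCs than in MPPs. Of the 140 regions, the LT-HSC lists held 29, 52 and 79 in KO (libraries 1, 2 and 4) and 65 and 30 in WT (libraries 2 and 3), while the MPP lists held 107 and 123 in KO and 120 and 114 in WT (libraries 1 and 2 of each). The mean share was 36.4% ± 15.6 in LT-HSCs (SD, n = 5) and 82.9% ± 5.05 in MPPs (SD, n = 4), with no overlap between cell types. All analysed regions showed nearly the same gap, 40.5% in LT-HSCs and 81.5% in MPPs. Regions of these genes lay within 1 kb of a gene end in 13 cases (9.29%), against 17.9% of all analysed regions, and 83 (59.3%) lay inside their gene.

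For each gene the share of its regions held was compared between cell types by a two-sided exact permutation test over all 126 labellings of the libraries, with Benjamini-Hochberg adjustment over 10292 genes that had 3 or more regions. In that test 7 of the 10 genes were lower in LT-HSCs at an adjusted p of 0.05 or less, and 50.9% of all genes tested were. None was higher in LT-HSCs, against 0.0777% of all genes. The median difference was −49.5 percentage points over the 10 genes and −44.2 over all genes, so a fall of this size was the common state in these lists. Without LT-HSC KO 4, 8 of the 10 genes were lower, as were 63.4% of all genes, and leaving out any of the other 8 libraries left no gene of any kind past the threshold.

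**Figure D1:**
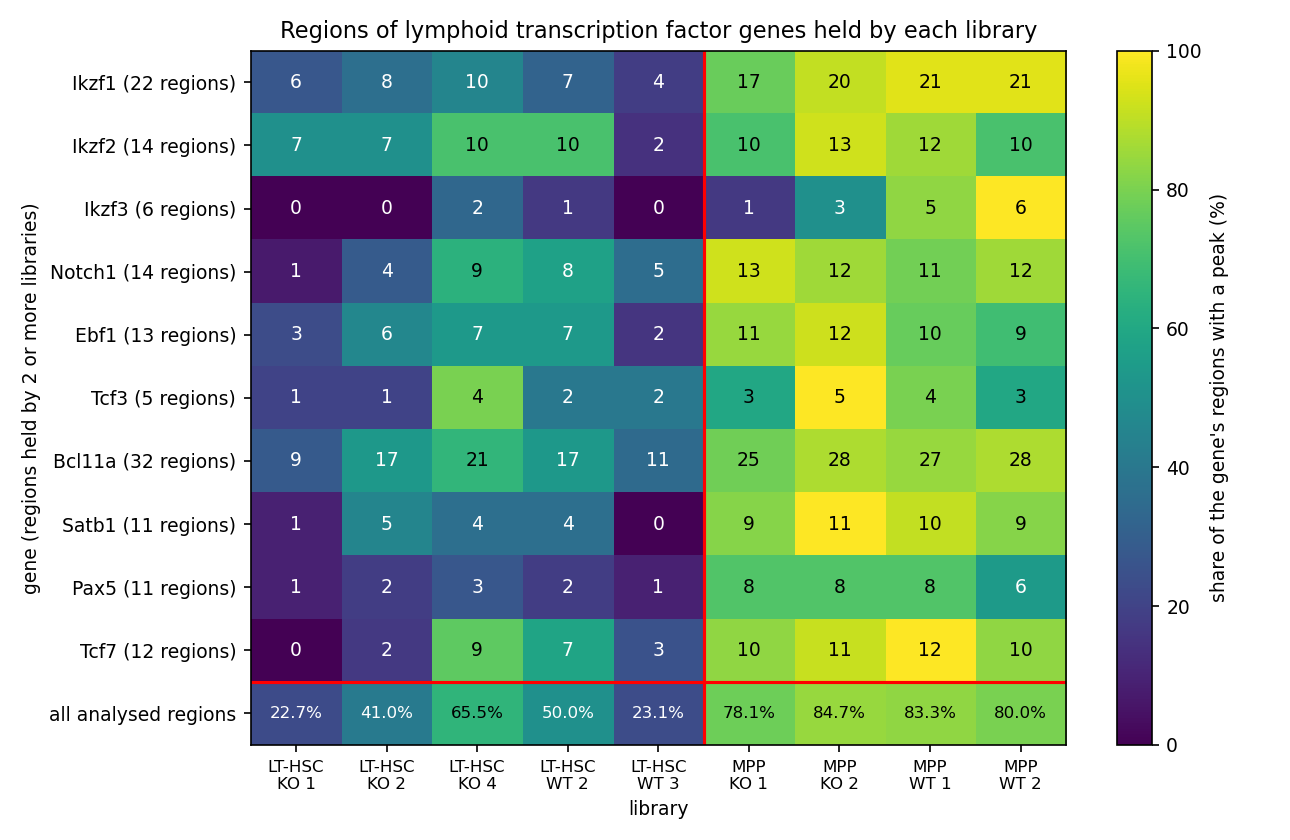
Number of regions with a peak in each library (columns) for each gene (rows), coloured by the share of the gene's regions in percent, with LT-HSC libraries left and MPP libraries right of the red line; the bottom row gives the share of all 95786 analysed regions. Dark cells are low shares: averaged over libraries the LT-HSC side is darker for every gene and for the bottom row, with overlapping libraries at Ikzf2, Ikzf3 and Tcf3.

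Single regions were then compared, with Fisher's exact test (two-sided) for each of the 81878 regions that some library did not hold. Of 122 such regions at these genes, 29 were held more in MPPs, and 20.3% of all regions tested were. None was held more in LT-HSCs, against 0.281% of all. Each of the 29 was progenitor-only, meaning a peak in all 4 MPP lists and in none of the 5 LT-HSC lists, the only pattern toward MPPs that can pass, with an exact p of 0.00794, the smallest this design gives, and an adjusted p of 0.0386. They are 20.7% of the 140 regions, and the same pattern was seen in 17.3% of all analysed regions. With any 1 library left out the smallest exact p was 0.0179 or 0.0286, and no region in the genome passed adjustment. At the other end, 18 of the 140 regions (12.9%) were held by all 9 libraries, against 14.5% of all.

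Among the Ikaros family, Ikzf1 (gene 22778, mm10 chromosome 11, 11684962 to 11772930) had the most regions, 22. Of these, LT-HSC KO libraries held 6, 8 and 10 and WT libraries 7 and 4, while MPP KO libraries held 17 and 20 and WT libraries 21 and 21. The difference in mean share was −58.0 percentage points (exact permutation p = 0.00794, adjusted p = 0.0312). The region around its first start (11685390 to 11686428) was held by all 9 libraries, although the peaks of LT-HSC KO 1, KO 2 and WT 3 in it did not overlap the start window. Its list percentile, the place of a peak by −log10 q within its own list with 100 as the strongest, was 69.9, 80.2 and 78.8 in LT-HSC KO and 70.5 and 49.5 in LT-HSC WT libraries, against 86.2 and 89.7 in MPP KO and 90.9 and 92.7 in MPP WT libraries. List percentiles come from lists of different length, so they describe a peak within its list and are not compared between cell types. Ranked among the regions common to all libraries, this region overlapped between cell types (limma adjusted p = 0.156). Of its regions 5 were progenitor-only, and the strongest of these lay 8.96 kb beyond the far end (11781666 to 11782108). Its list percentiles were 74.4 and 80.2 in MPP KO and 79.8 and 78.0 in MPP WT libraries.

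Ikzf2 (gene 22779, chromosome 1, 69531207 to 69687351) had the smallest difference of the 10 genes in the full lists. Of its 14 regions, LT-HSC KO libraries held 7, 7 and 10 and WT libraries 10 and 2, while MPP KO libraries held 10 and 13 and WT libraries 12 and 10. The shares overlapped between cell types, and the difference of −28.9 percentage points had an adjusted p of 0.113 by the exact permutation test. Its strongest region lay 17.4 kb outside the gene (69513511 to 69514030), with list percentiles of 37.8, 63.8 and 73.9 in LT-HSC KO and 63.5 and 23.1 in LT-HSC WT libraries, against 90.9 and 93.3 in MPP KO and 87.7 and 88.7 in MPP WT libraries. Its single progenitor-only region, 69752680 to 69753049, lay 65.5 kb outside the gene. The region beside the gene's higher-coordinate end (69687087 to 69687805) was held by all 9 libraries.

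Ikzf3 (gene 22780, chromosome 11, 98464610 to 98546031), whose product acts later in B cells, had few peaks in LT-HSCs. Its 6 regions were held 0, 0 and 2 times in LT-HSC KO and 1 and 0 times in LT-HSC WT libraries, against 1 and 3 times in MPP KO and 5 and 6 times in MPP WT libraries. No library was strong there: list percentiles of its peaks lay between 3.01 and 38.6. The cell types overlapped, since LT-HSC KO 4 held more than MPP KO 1, and the difference was −52.5 percentage points (exact permutation, adjusted p = 0.0679). Of its regions, 1 (98469792 to 98470117) was held by all 4 MPP libraries, and by LT-HSC KO 4 as well.

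Of the T lineage genes, Notch1 (gene 18128, chromosome 2, 26457902 to 26503822) had 14 regions. LT-HSC KO libraries held 1, 4 and 9 of them and WT libraries 8 and 5, while MPP KO libraries held 13 and 12 and WT libraries 11 and 12. All MPP libraries were higher than all LT-HSC libraries (−47.1 percentage points, exact permutation p = 0.0159, adjusted p = 0.0390). The region over its start (26503462 to 26504277) had list percentiles of 74.4 in LT-HSC KO 4 and of 83.5 and 59.8 in LT-HSC WT 2 and WT 3, against 89.4 and 89.8 in MPP KO and 92.7 and 90.2 in MPP WT libraries. LT-HSC KO 1 and KO 2 had no peak at this start. A region 31.0 kb before the start (26534605 to 26535007) was progenitor-only, at list percentiles of 75.1 and 79.8 in MPP KO and 76.7 and 75.4 in MPP WT libraries.

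Tcf7 (gene 21414, chromosome 11, 52246527 to 52283383) spread widely among LT-HSC libraries. Of its 12 regions LT-HSC KO libraries held 0, 2 and 9 and WT libraries 7 and 3, while MPP KO libraries held 10 and 11 and WT libraries 12 and 10. The cell types did not overlap, and the difference was −54.6 percentage points (exact permutation p = 0.0159, adjusted p = 0.0390). Its start region (52282827 to 52283566) was progenitor-only, at list percentiles of 29.0 and 19.8 in MPP KO and 7.83 and 40.7 in MPP WT libraries. The strongest Tcf7 region lay 35.6 kb before the first listed start (52318358 to 52318890), with list percentiles of 61.6 and 92.2 in LT-HSC KO (libraries 2 and 4, with no peak in library 1) and 87.1 and 48.4 in the WT ones, against 88.1 and 88.1 in MPP KO and 83.4 and 88.0 in MPP WT libraries. In MPPs this distant site was thus high in each list, and the start region was in the lower part of each list. Within the start region, the peak of MPP KO 1 did not overlap the start window. The MPP KO 2 peak over that window had a list percentile of 0.249.

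Satb1 (gene 20230, chromosome 17, 51736187 to 51833290) had the widest gap of the 10 genes in the full lists, but not with a −log10 q of at least 5, merged summit windows, a distance of 20 kb or no filter on regions held by 1 library (−38.3 percentage points). LT-HSC KO libraries held 1, 5 and 4 of its 11 regions and WT libraries 4 and 0, while MPP KO libraries held 9 and 11 and WT libraries 10 and 9 (−63.2 percentage points, exact permutation p = 0.00794, adjusted p = 0.0312). Its strongest region lay inside the gene, 18.8 kb after the first listed start (51814257 to 51814791). List percentiles there were 40.8 in LT-HSC KO 2, 63.6 in LT-HSC KO 4 and 41.0 in LT-HSC WT 2, with no peak in the other 2, against 90.4 and 89.4 in MPP KO and 88.1 and 85.6 in MPP WT libraries. It was thus high in each MPP list, and in the LT-HSC lists it was absent or in the middle part of the list.

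**Figure D2:**
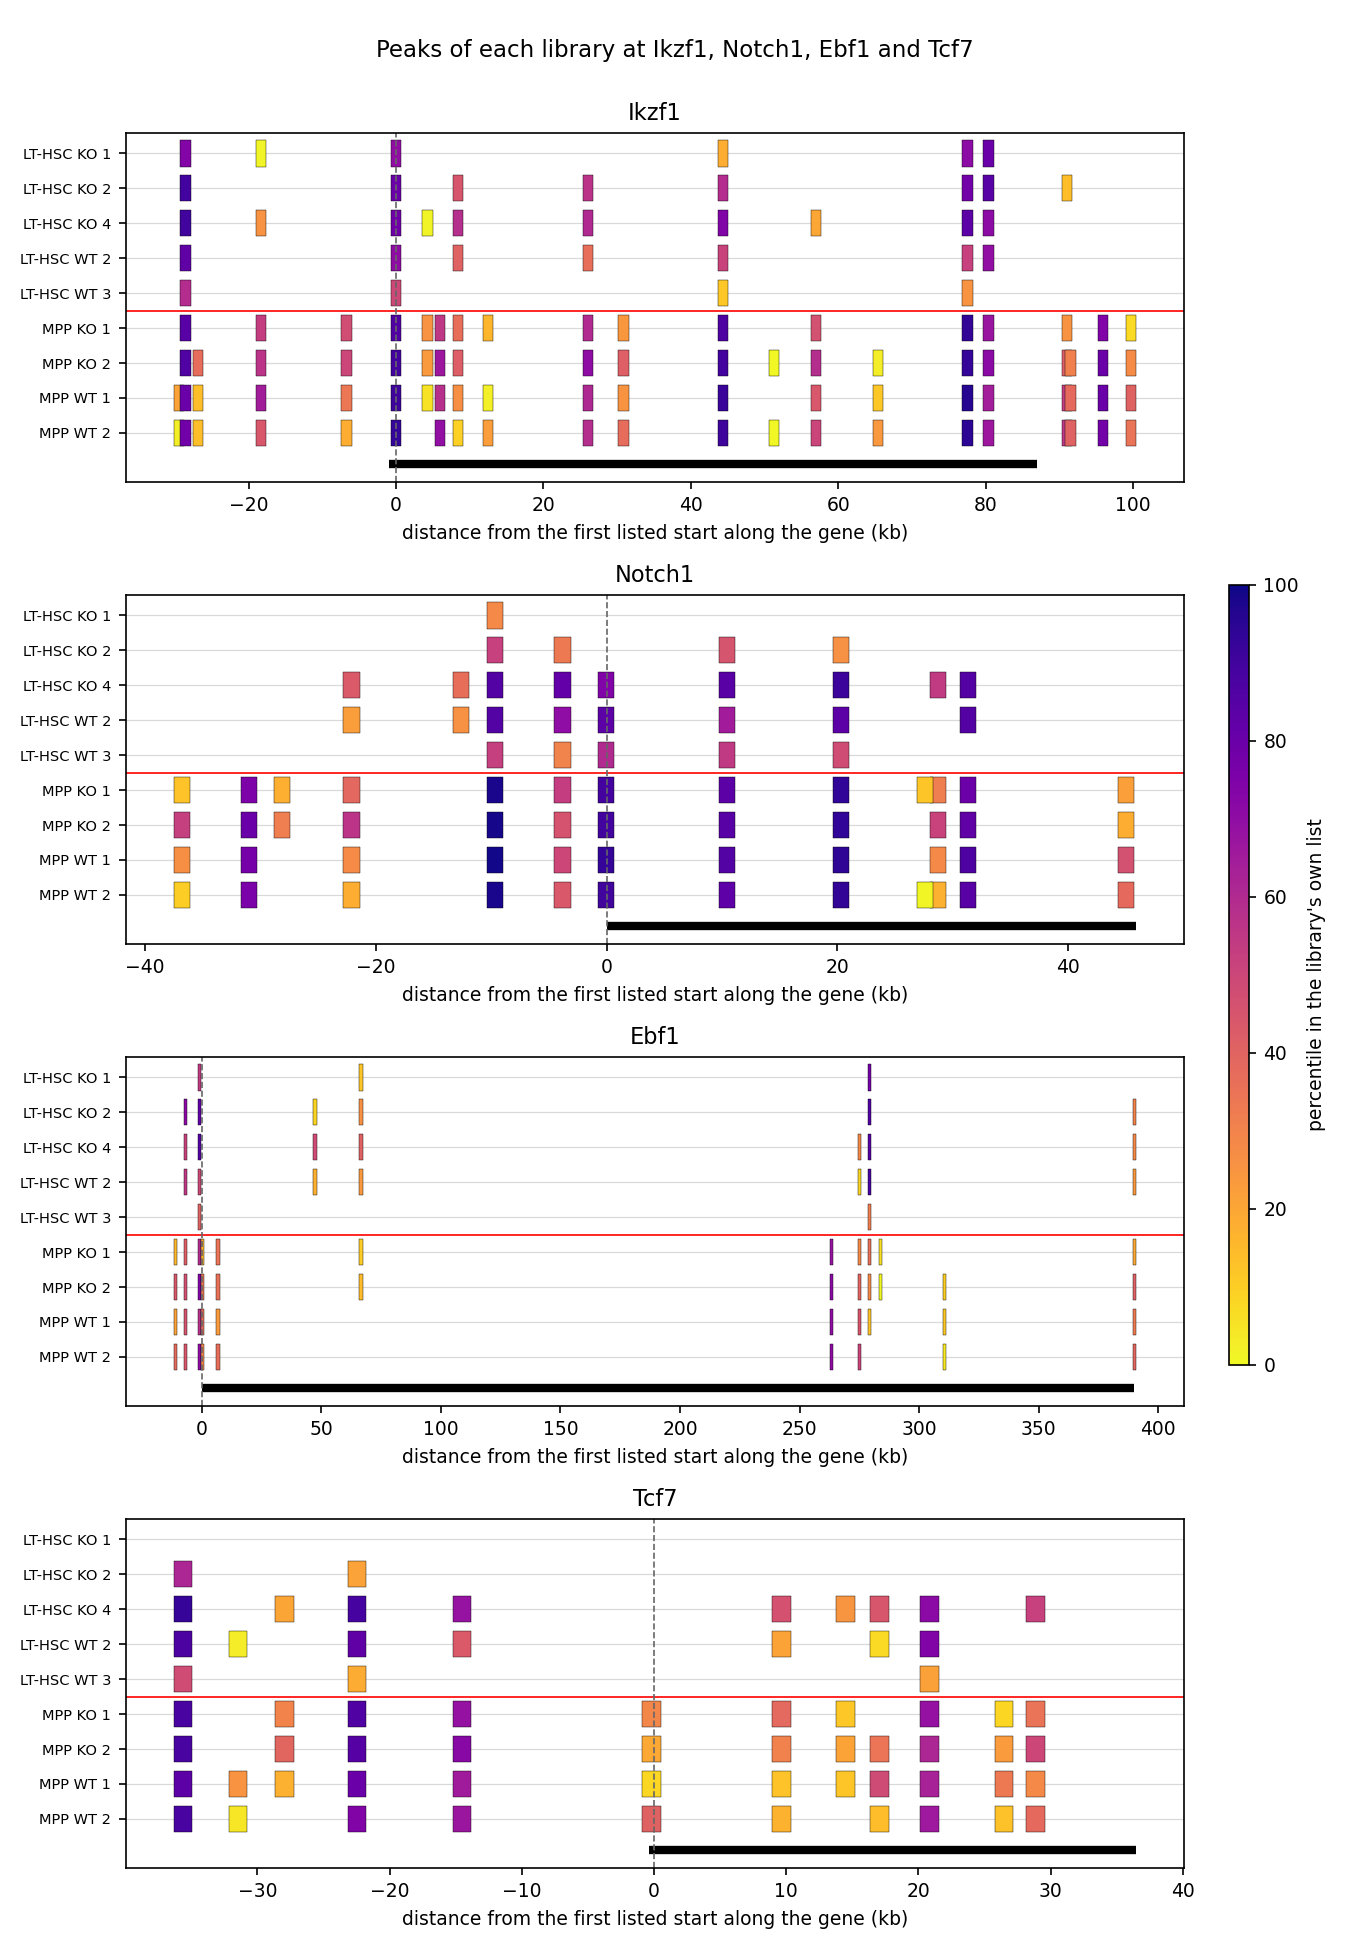
Peaks of each library (rows) at Ikzf1, Notch1, Ebf1 and Tcf7 against distance from the first listed start along the gene (kb), with LT-HSC libraries above and MPP libraries below the red line, peaks drawn at least 1.4 kb wide, the gene as a black bar, and colour giving the percentile in the library's own list. At Notch1 the start is empty in LT-HSC KO 1 and KO 2, and at Tcf7 in all 5 LT-HSC libraries.

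Among the B lineage genes, Tcf3 (gene 21423, chromosome 10, 80409541 to 80433976) had only 5 regions, and 1 dominated. Its start region (80433479 to 80434354) had list percentiles of 65.7, 85.6 and 96.3 in LT-HSC KO and 94.1 and 90.6 in LT-HSC WT libraries, against 97.2 and 97.6 in MPP KO and 97.6 and 97.6 in MPP WT libraries. Its mean list percentile over the 9 libraries, 91.4, was the highest of the 18 regions held by all of them. The share of Tcf3 regions held overlapped between cell types, with 1, 1 and 4 in LT-HSC KO and 2 and 2 in LT-HSC WT against 3 and 5 in MPP KO and 4 and 3 in MPP WT libraries (−35.0 percentage points, exact permutation, adjusted p = 0.122). The wider region around this start was thus held by all 9 libraries, and the start window itself by all but LT-HSC KO 2.

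Ebf1 (gene 13591, chromosome 11, 44618100 to 45008096) had no peak over its first start window, but one on either side. The region 0.957 kb before the start (44616873 to 44617414) was held by all 9 libraries, and the one 0.351 kb after it (44618263 to 44618639) was progenitor-only. LT-HSC KO libraries held 3, 6 and 7 of its 13 regions and WT libraries 7 and 2, while MPP KO libraries held 11 and 12 and WT libraries 10 and 9 (−42.3 percentage points, exact permutation p = 0.00794, adjusted p = 0.0312). A pair of sites deep in the gene differed in which libraries held them. The site 263 kb after the start (44881140 to 44881677) was held by no LT-HSC library and had list percentiles of 68.2 and 71.4 in MPP KO and 70.3 and 70.4 in MPP WT libraries. The site 279 kb after the start (44897142 to 44897854) had list percentiles of 77.1, 86.4 and 85.4 in LT-HSC KO and 88.1 and 31.8 in LT-HSC WT libraries, against 35.6 and 28.3 in MPP KO and 12.5 in MPP WT 1, and no peak in MPP WT 2.

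Pax5 (gene 18507, chromosome 4, 44524748 to 44710694) had 11 regions, of which LT-HSC KO libraries held 1, 2 and 3 and WT libraries 2 and 1, while MPP KO libraries held 8 and 8 and WT libraries 8 and 6. The difference was −51.8 percentage points (exact permutation p = 0.00794, adjusted p = 0.0312). Although its start had no peak in any library, a region inside the gene 6.15 kb after the start (44704308 to 44704778) was held by all 9. Its list percentiles were 50.1, 68.4 and 85.3 in LT-HSC KO and 91.5 and 65.0 in LT-HSC WT libraries, against 91.6 and 92.3 in MPP KO and 92.9 and 88.6 in MPP WT libraries.

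Bcl11a (gene 14025, chromosome 11, 24076564 to 24173558) had the most regions, 32, and 16 of them lay outside the gene. LT-HSC KO libraries held 9, 17 and 21 and WT libraries 17 and 11, while MPP KO libraries held 25 and 28 and WT libraries 27 and 28 (−37.5 percentage points, exact permutation p = 0.0159, adjusted p = 0.0390). It also had the most regions held by all 9 libraries, 8, and the most progenitor-only ones, 7. Several sites lay beyond its far end. The site 146 kb after the first listed start (24226650 to 24227296) had list percentiles of 95.6, 97.8 and 98.6 in LT-HSC KO and 95.9 and 89.1 in LT-HSC WT libraries, against 80.8 and 83.5 in MPP KO and 69.7 and 72.6 in MPP WT libraries. Sites 104 kb (24184883 to 24185368) and 120 kb (24200185 to 24200782) after the start had list percentiles of 91.5 to 94.2 in the 4 MPP libraries. In the 4 LT-HSC libraries that held them these were 2.31 to 70.9, with no peak in LT-HSC KO 1. List length sets part of that spread. At 120 kb, 2.31 in LT-HSC WT 3 was peak 22350 from the top of its list, and 64.2 in LT-HSC KO 4 was peak 25635.

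**Figure D3:**
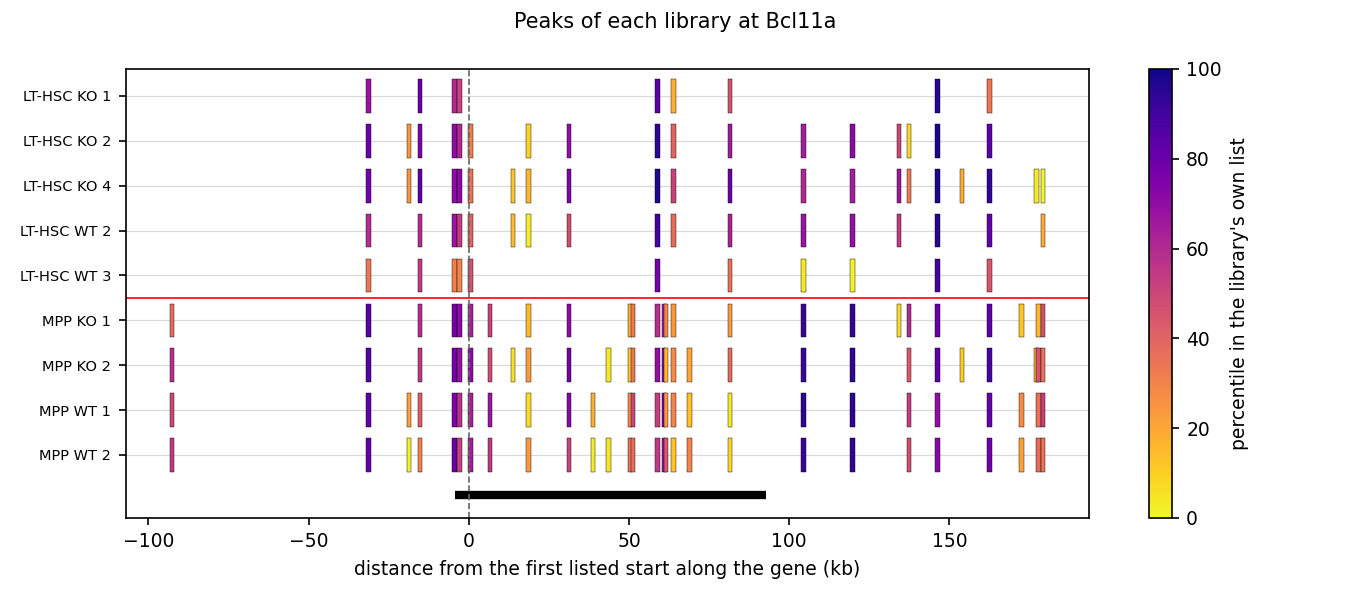
Peaks of each library (rows) at Bcl11a against distance from the first listed start along the gene (kb), with LT-HSC libraries above and MPP libraries below the red line, peaks drawn at least 1.4 kb wide, the gene as a black bar, and colour giving the percentile in the library's own list. The sites at 104 and 120 kb have no peak in LT-HSC KO 1, and the site at 146 kb has a peak in every library.

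The progenitor-only regions ranged from strong to weak peaks. They numbered 7 at Bcl11a, 5 at Ikzf1, 4 each at Ebf1 and Satb1, 3 each at Notch1 and Pax5, 2 at Tcf7 and 1 at Ikzf2, and Ikzf3 and Tcf3 had none. Besides the sites already given, many lay inside their genes, and only examples are listed. A Bcl11a site lay 61.0 kb after the start (24141521 to 24141900, list percentiles 64.6 to 75.3 over the MPP libraries). A Satb1 site lay 48.2 kb after the start (51784905 to 51785338, 58.4 to 62.9). An Ikzf1 site lay 5.96 kb after the start (11691714 to 11692046, 55.3 to 69.2), and a Pax5 site 39.5 kb after it (44670998 to 44671357, 40.7 to 51.9). Others were near the bottom of a list, such as a Satb1 site 72.9 kb after the start (51760141 to 51760553, 2.50 to 33.5). Peaks seen in stem cells alone were also counted. No region was held by all 5 LT-HSC libraries without an MPP peak, against 0.24% of all analysed regions. Held by 2 or 3 LT-HSC libraries and no MPP list were 4 regions, 1 each at Ikzf2, Notch1, Ebf1 and Pax5. The share of all regions with that pattern was not computed, and LT-HSC lists are shorter, so the 4 are given as a description only. The Ebf1 one lay 47.3 kb after the start (44665196 to 44665590), at list percentiles of 8.92 in LT-HSC KO 2, 48.5 in LT-HSC KO 4 and 17.8 in LT-HSC WT 2.

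Because list length moves with cell type, presence was also compared after each list was reduced to its 22690 strongest peaks, as many as the shortest list holds. The 10 genes then had 42 regions, and the gap closed: LT-HSC KO libraries held 25, 30 and 30 and WT libraries 27 and 28, while MPP KO libraries held 29 and 28 and WT libraries 25 and 28. The means were 66.7% ± 5.05 in LT-HSCs (SD, n = 5) and 65.5% ± 4.12 in MPPs (SD, n = 4). Over all 33949 regions analysed at this length the means were 61.9% and 65.3%, so the gap became small there too. By Fisher's exact test, single sites were called in both directions (adjusted p = 0.0445 for each), although none was called toward LT-HSCs in the full lists. Progenitor-only at equal length were 3 regions, the Ikzf1 site beyond the far end, the Notch1 site 31.0 kb before the start and the Satb1 site inside the gene, which 3 LT-HSC libraries held in the full lists. In this direction, 9.09% of the 33 regions tested at these genes and 11.8% of all regions tested were called. The reverse pattern, all LT-HSC lists but none from MPPs, was seen at 4 of the 33 regions tested, against 6.07% of all regions tested. They were the Ebf1 site at 279 kb and 3 at Bcl11a (24065326 to 24065716, 24139328 to 24139931 and 24162050 to 24162504). These 4 were 9.52% of the 42 regions, against 4.33% of all regions analysed at this length.

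At equal length 6 of the 10 genes still had the 3 regions needed for a test of their share, and none of them passed adjustment, nor did any of the 4090 genes tested. Ebf1 then had 3 regions, held 2, 3 and 2 times in LT-HSC KO and 2 and 2 times in LT-HSC WT lists and by no MPP list (73.3 percentage points, exact permutation, adjusted p = 0.0503). For Bcl11a the 12 regions left were held 8, 11 and 9 times in LT-HSC KO and 9 and 10 times in LT-HSC WT lists, against 8 and 7 times in MPP KO and 5 and 6 times in MPP WT lists (24.2 percentage points, exact permutation, adjusted p = 0.103). Both differences thus had the opposite sign to those of the full lists. The difference stayed negative at Ikzf1 (−10.0 percentage points), Ikzf2 (−13.6) and Notch1, and was 0 at Tcf7. At Notch1, 2 libraries were low: its 7 regions were held 1, 1 and 6 times in LT-HSC KO and 6 and 5 times in LT-HSC WT lists, against 6 in each MPP list (−31.4 percentage points, exact permutation, adjusted p = 0.476). Ikzf3 had no region among the strongest peaks.

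Ranks were then compared among sites open in every library, so that the same number of regions was ranked in each list. Among the 13908 regions held by all 9 libraries, each library's −log10 q values were ranked, turned into normal scores and compared with limma. Of the 18 such regions at these genes, 5 ranked higher in LT-HSCs and 4 higher in MPPs at an adjusted p of 0.05 or less, against 15% and 14.2% of all regions tested. The median difference was −0.14 normal-score units over the 18 regions and −0.05 over all. Without LT-HSC KO 4 the counts were 5 and 5, against 24.6% and 26.4% of all regions, with the Tcf3 start region added in the MPP direction (limma adjusted p = 0.00808). The difference at that region was −0.41 with all libraries (limma adjusted p = 0.165) and changed sign when peaks were ordered by fold enrichment (0.15).

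Of the 5 sites higher in LT-HSCs, 4 belonged to Bcl11a. At the site 146 kb after the start, the percentile among the common regions was 92.9, 93.4 and 92.7 in LT-HSC KO and 85.1 and 82.2 in LT-HSC WT libraries, against 26.6 and 28.3 in MPP KO and 14.6 and 18.2 in MPP WT libraries (2.02 ± 0.16 normal-score units, SE, limma adjusted p = 0.000104). At 58.9 kb, inside the gene, it was 75.4, 83.2 and 83.4 in LT-HSC KO and 62.6 and 63.8 in LT-HSC WT libraries, against 6.34 and 10.7 in MPP KO and 6.17 and 7.88 in MPP WT libraries (2.04 ± 0.17, limma adjusted p = 0.000135). Cell types were far apart at both sites. The sites at 81.6 kb (24162050 to 24162504; 1.76 ± 0.18, limma adjusted p = 0.000284) and 15.2 kb before the start (24065326 to 24065716; 1.26 ± 0.28, limma adjusted p = 0.00887) were lower in rank, at 9.62 to 31.0 and 7.80 to 69.9 in LT-HSCs against 0.126 to 0.999 and 2.39 to 6.38 in MPPs. The fifth was the Ikzf1 site 28.5 kb before the start (11657086 to 11657682; 0.57 ± 0.17, limma adjusted p = 0.0297), whose call was lost when peaks were ordered by fold enrichment (0.47, adjusted p = 0.103) and without LT-HSC WT 2, LT-HSC WT 3 or any 1 of the 4 MPP libraries (adjusted p of 0.0528 to 0.125). The Ebf1 region 0.957 kb before the start was not called (0.52 ± 0.25, limma adjusted p = 0.136), except without LT-HSC WT 2 (adjusted p = 0.0402).

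The 4 sites higher in MPPs lay at Notch1, Ikzf1 and Ikzf2. At the Notch1 site 9.68 kb before the start (26513193 to 26513820) the percentile was 16.8, 11.4 and 39.0 in LT-HSC KO and 51.8 and 32.8 in LT-HSC WT libraries, against 91.1 and 90.5 in MPP KO and 94.2 and 90.2 in MPP WT libraries (−1.89 ± 0.23, limma adjusted p = 0.000518). Inside Ikzf1, the site at 44.4 kb (11730025 to 11730633) lay at 4.20 to 16.7 in LT-HSCs and 41.5 to 55.8 in MPPs (−1.39 ± 0.16, limma adjusted p = 0.000421). The Ikzf1 site at 77.5 kb (11763138 to 11763794) lay at 4.51 to 57.8 in LT-HSCs and 59.5 to 75.5 in MPPs (−1.25 ± 0.205, limma adjusted p = 0.00213). The Ikzf2 site 17.4 kb outside the gene (69513511 to 69514030) lay at 10.8 to 23.8 in LT-HSCs and 42.1 to 61.9 in MPPs (−1.09 ± 0.17, limma adjusted p = 0.00165). The Bcl11a site 31.2 kb before the start (24049215 to 24049710) was not called by −log10 q (−0.29 ± 0.24, limma adjusted p = 0.375), but was higher in MPPs when peaks were ordered by fold enrichment (−0.86, adjusted p = 0.00879). Cell types did not overlap at any of the 9 called sites or at the Tcf3 start, a state seen in 15% (LT-HSC higher) and 16.1% (MPP higher) of all common regions.

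**Figure D4:**
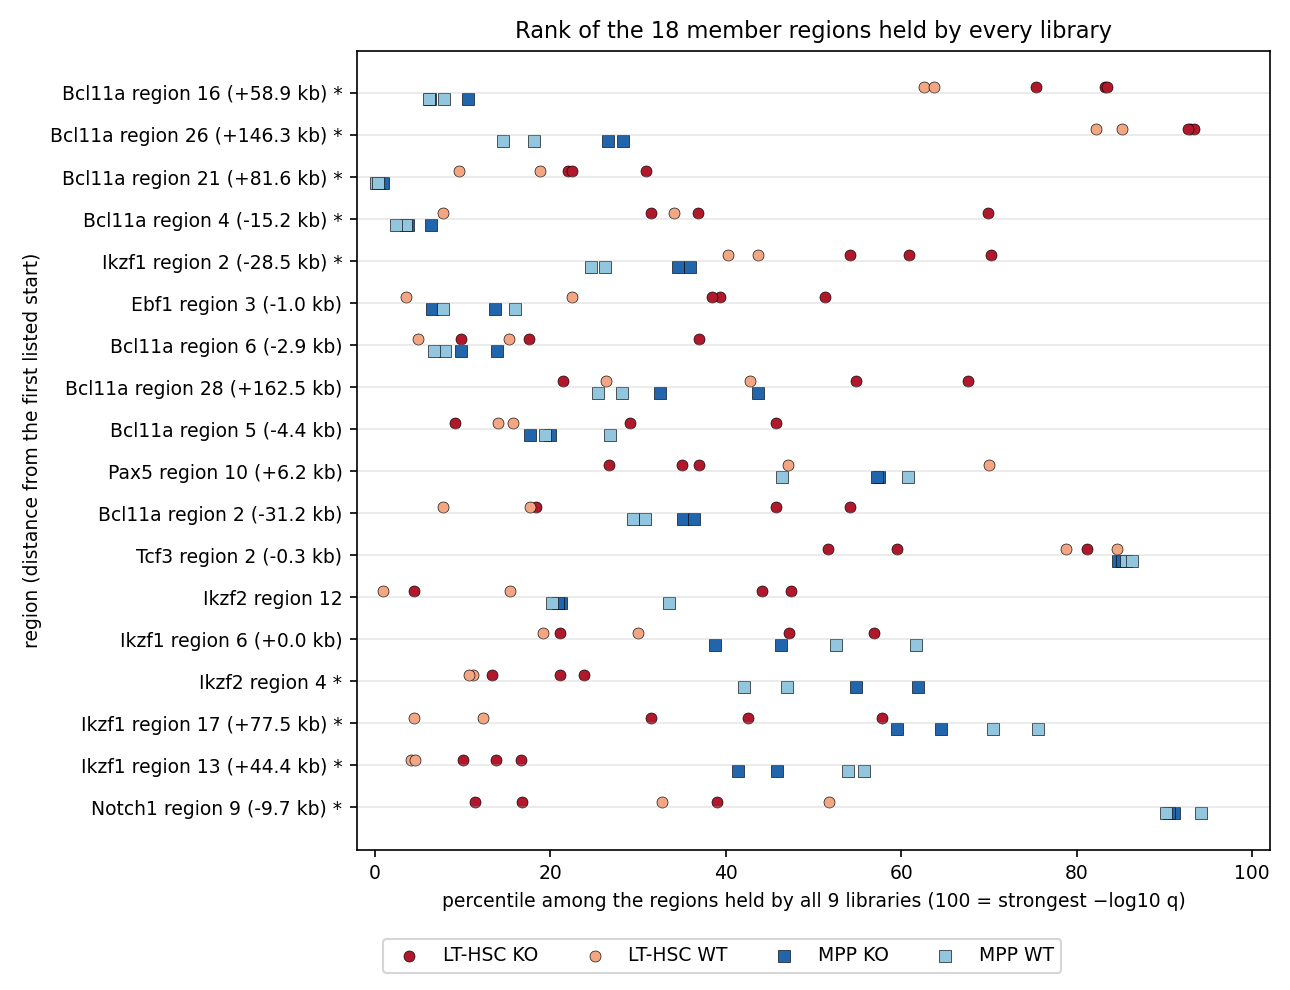
Percentile of −log10 q among the 13908 regions held by all 9 libraries (100 is the strongest) for the 18 regions of these genes, 1 point per library, circles for LT-HSCs and squares for MPPs, dark for KO and light for WT, with asterisks at a limma adjusted p of 0.05 or less. At the top, 4 Bcl11a sites have their LT-HSC points right of all MPP points, and at the bottom the Notch1 site 9.68 kb before the start has the reverse order.

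Between KO and WT, no region of the 10 genes and no gene passed an adjusted threshold in either cell type when all libraries were used. Presence could be tested by an exact test stratified by cell type in 1565 regions able to reach p under 0.05, only 1 of them at these genes (Bcl11a, 24061915 to 24062194), held by 2 KO and 2 WT libraries (exact p = 1). No region of any gene passed adjustment, and 2.49% had an unadjusted p under 0.05. Held by KO libraries only were 8 regions of these genes (5.71%, against 5.63% of all analysed regions), and by WT libraries only 5 (3.57%, against 2.64% of all). The one with most libraries behind it was a Tcf7 site 31.5 kb before the start (52314261 to 52314679), held by LT-HSC WT 2 and both MPP WT libraries at list percentiles of 2.86 to 25.1.

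The share of regions held per gene gave no call for genotype in the 10 genes or in any other gene, and none of the 10 had an unadjusted p under 0.05 by the exact permutation test within cell type, against 0.525% of all genes. With 60 labellings the smallest p this test gives is 0.0167. The median KO minus WT difference was 3.02 percentage points over the 10 genes and 1.87 over all. Ikzf3 differed most, at −27.8 percentage points (exact permutation p = 0.217). Between LT-HSC KO 1 and LT-HSC WT 3, lists of nearly equal length, KO 1 held fewer regions of Notch1 (1 against 5) and Tcf7 (0 against 3) and more of Ikzf2 (7 against 2), but LT-HSC KO 4 held 9, 9 and 10 of these, near LT-HSC WT 2 with 8, 7 and 10. The KO stem cell libraries thus did not move together at these genes.

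Rank was compared between genotypes in the 64003 regions held by all 4 MPP libraries, 88 of them at these genes. limma called none at an adjusted p of 0.05 or less, in these or other genes (0% of all), and the smallest adjusted p at these genes was 0.243. At an unadjusted p under 0.05, 10 were higher and 4 lower in KO, against 6.82% and 6.77% of all regions tested. The smallest p fell at the Bcl11a site at 81.6 kb, with percentiles of 12.8 and 20.3 in MPP KO and 0.807 and 2.31 in MPP WT libraries (1.22 ± 0.21 normal-score units, limma adjusted p = 0.243). A second Bcl11a site, 15.2 kb before the start, had 50.2 and 39.8 in MPP KO and 25.0 and 16.9 in MPP WT libraries (0.69 ± 0.17, limma adjusted p = 0.287). Both of these Bcl11a sites also ranked higher in LT-HSCs than in MPPs in the comparison of cell types.

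The remaining 8 higher in KO were 2 more at Bcl11a and 2 each at Ikzf1, Notch1 and Tcf7. At Notch1, the site 22.1 kb before the start (26525766 to 26526090) had percentiles of 27.4 and 42.2 in MPP KO and 12.1 and 7.83 in MPP WT libraries (0.89 ± 0.20, limma adjusted p = 0.268). Those lower in KO were 2 Ikzf1 sites, 1 Notch1 site and 1 Ebf1 site. The Notch1 one lay near the far end of the gene (26458459 to 26459107), with 11.7 and 5.50 in MPP KO and 30.7 and 24.4 in MPP WT libraries (−0.80 ± 0.19, limma adjusted p = 0.281). Sites of 1 gene thus differed in both directions, and none of the 14 passed adjustment. Over all 88 the median difference was 0.04 normal-score units, and 49 were positive, against 0.00 and 50.4% over all regions.

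In stem cells, 14498 regions were held by all 5 LT-HSC libraries, 19 of them at these genes, and limma again called none in these or other genes (0% of all; smallest adjusted p 0.373). A positive KO minus WT difference was seen at 16 of the 19, against 47.6% of all regions, and the median was 0.47 normal-score units, against −0.04 over all. The 16 were all the regions tested at Bcl11a (8), Ikzf1 (4), Ikzf2 (2) and Ebf1 (2), while those of Notch1, Tcf3 and Pax5 had a negative difference. At an unadjusted p under 0.05, 2 were higher and 0 lower in KO, against 7.7% and 4.81% of all regions tested. The Ikzf1 site at 77.5 kb had percentiles of 58.2, 43.1 and 32.1 in LT-HSC KO and 4.95 and 13.6 in LT-HSC WT libraries (1.23 ± 0.38, limma adjusted p = 0.373). The Ebf1 site 0.957 kb before the start had 39.8, 51.7 and 39.1 in LT-HSC KO and 3.96 and 24.2 in LT-HSC WT libraries (1.07 ± 0.41, limma adjusted p = 0.383).

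LT-HSC KO 4 decided this count. This library was set apart by the likeness of its ranks to those of the WT libraries in these same data. Calls made without it depend on that choice and are no separate test of genotype. Without LT-HSC KO 4, 3044 of the 14498 regions (21%) passed, 1695 higher (11.7%) and 1349 lower (9.3%) in KO. Regions of these genes were 3 of them, all higher in KO. They were the Ikzf1 site at 77.5 kb (1.39 ± 0.32, limma adjusted p = 0.0296), the Ikzf2 region at its higher-coordinate end (1.54 ± 0.44, adjusted p = 0.0483) and the Bcl11a site 31.2 kb before the start (1.13 ± 0.30, adjusted p = 0.0406). With KO 4, the adjusted p of the last pair were 0.454 and 0.425. Whether the difference between genotypes itself differed between cell types was tested over the 13908 common regions, and none passed (0%; limma, smallest adjusted p 0.592). At these genes 3 had an unadjusted p under 0.05, 2 at Ikzf1 and 1 at Ebf1, all with a larger KO minus WT difference in LT-HSCs, against 5.1% of all regions in that direction, and 0 the other way, against 3.04%.

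**Figure D5:**
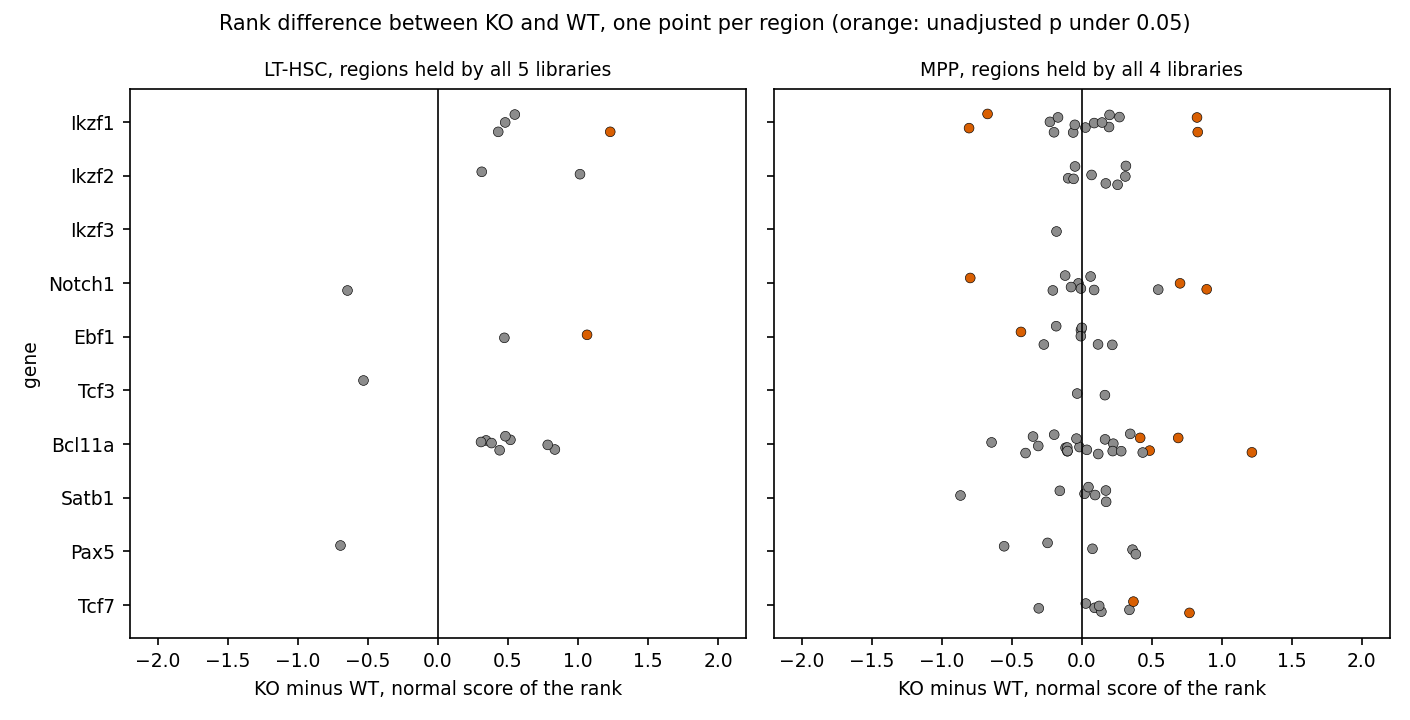
KO minus WT difference in normal scores of the rank of −log10 q for each region of the 10 genes (rows), left for the 19 regions held by all 5 LT-HSC libraries and right for the 88 held by all 4 MPP libraries, with unadjusted p under 0.05 in orange. In LT-HSCs 16 of 19 points lie right of 0, and in MPPs points fall on both sides.

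Other lymphoid regulators were read in the same way from a list of 30 further genes, among them Flt3, Il7r, Rag1, Gata3, Bcl11b, Irf8 and Runx3. Of these, 28 had 388 regions in all. LT-HSC libraries held 17.5% to 66.5% and MPP libraries 82.5% to 85.3% of them. Progenitor-only regions numbered 65 (16.8%), and none showed the reverse pattern, against 17.3% and 0.24% of all regions. Of 24 genes tested for share, 15 were lower in LT-HSCs and none higher by the exact permutation test, against 50.9% and 0.0777% of all genes. Among the 15 were Il7r, the receptor gene for interleukin 7 (−76.7 percentage points, adjusted p = 0.0312), and Irf8, a factor of myeloid and B cells (−62.8 percentage points, adjusted p = 0.0312). In rank, 7 of 38 common regions were higher in LT-HSCs and 9 higher in MPPs by limma, against 15% and 14.2% of all common regions. At equal list length the further genes had 139 regions, and the cell types still did not overlap. LT-HSC libraries held 43.2% to 56.1% (mean 50.9%) and MPP libraries 66.2% to 70.5% (mean 68.9%). Over all regions analysed at this length the means were 61.9% and 65.3%. Progenitor-only were 14 (10.1%), and 4 (2.88%) had the reverse pattern, against 8.41% and 4.33% of all. The gap of the further genes thus narrowed but did not close. This pooled gap was not tested.

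Markers of mature cells were followed because the sorts could carry other cells. Regions of T cell marker genes were held at 15.4% to 46.2% in LT-HSC and 73.1% to 88.5% in MPP libraries (4 of 6 genes with regions, none at Cd3g or Cd8a). The 2 regions of Cd3e and 5 of Cd4 were held by no LT-HSC list, but the 1 region of Cd3d was held by all 9 libraries. Of 18 Cd28 regions, LT-HSC KO libraries held 3, 3 and 11 and WT libraries 10 and 4. Those of B cell markers were at 0% to 47.1% in LT-HSC and 70.6% to 94.1% in MPP libraries (5 of 6 genes, none at Cd79a), and of mature myeloid markers at 5.71% to 42.9% in LT-HSC and 80% to 94.3% in MPP libraries (5 of 6 genes, none at Ly6g). Erythroid markers were at 20% to 55% in LT-HSC and 60% to 75% in MPP libraries (6 of 6 genes). Their part in the results for the lymphoid factors was not tested. Among 2554 other genes with 10 or more regions, those whose shares over the 9 libraries lay nearest the pooled shares of the 10 genes were Znrf1 (Euclidean distance 9.25 percentage points), Mki67 (9.73) and Itpr1 (10.3).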

How the data were processed

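ATAC-seq peak lists of 9 libraries were used as deposited. Per the submitters' processing notes the genome build was mm10, and the tools named include MACS2 2.1.1, with the aligner's settings not given in the sources used here. Each deposited narrowPeak list gives per peak a fold enrichment over background (a ratio), a −log10 p, a −log10 q and an integer score that the authors' peak caller wrote. The score was not used. There is 1 list per library. Read counts are not part of these lists, so depth per library, and any interval that needs it, is unknown.

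Peaks overlapping by 1 bp were merged over the libraries into 117465 regions, of which 95786 held by 2 or more libraries were analysed, and assigned to 20665 protein-coding genes. Where genes overlap, the shortest one holding the midpoint was taken. Presence was tested with Fisher's exact test, or for genotype an exact test stratified by cell type, shares per gene with exact permutation tests, and normal scores of ranks of −log10 q with limma 3.58.1 in R 4.3.3; all are two-sided, with Benjamini-Hochberg adjustment over all regions or genes tested. Deeper sequencing also raises −log10 q and lengthens a list. Scripts were tested on simulated data with 200 changed features.

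The genes, the other lists and the tests were chosen with earlier results of these data known. All 10 genes are named. Regions described singly were mostly taken from the strongest per gene, those at gene ends, those held by all libraries of one cell type and none of the other, and those past an adjusted p of 0.05 in a rank test. Not every region of these classes is described. Single regions below that threshold were picked after their values were seen. Genes most like the 10 are the 3 nearest by Euclidean distance. Alternatives were lists of equal length, a −log10 q of at least 5, merging of windows of 100 bp each side of summits, no filter on regions held by 1 library, a distance of 20 kb, ordering by fold enrichment, log2 fold enrichment computed from the deposited fold values, a replicate block, and leaving out each library. The interaction of genotype and cell type was added after the data were seen.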

Additional observations from a re-analysis of the deposited data

Results flagged for a closer look

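Of 38 sets of libraries examined for a value far from the others, 1 stood out, and chance alone gives about 1 in 20. The share of Pax5 regions held was 54.5% in MPP WT 2, or 6 of 11, against 72.7% in each of the other 3 MPP libraries.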

How the results depend on the processing

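At equal list length, 3 regions of these genes were held more in MPPs and 4 more in LT-HSCs, 0 genes differed in share, and the differences of Ebf1 (73.3 percentage points) and Bcl11a (24.2) reversed. Leaving out each library gave 0 presence calls toward MPPs throughout, 0 to 8 genes lower in LT-HSCs (8 without LT-HSC KO 4, 0 otherwise), 4 to 5 regions ranking higher in each cell type, and 0 to 3 regions higher in LT-HSC KO than WT (3 without KO 4). A −log10 q of at least 5, summit windows and no filter gave 28 to 29 presence calls and 7 to 8 genes. A distance of 20 kb gave 6 genes, with Notch1 no longer called (exact permutation, adjusted p = 0.0861). Presence of single regions was not tested at that distance. Replicates 3 and 4 hold only LT-HSC WT 3 and LT-HSC KO 4, so a replicate block fits these libraries exactly. LT-HSC WT then rests on 1 library, and only differences are given. With the block these were −1.85 at the Notch1 site 9.68 kb before the start and 1.22 at the Bcl11a site 15.2 kb before the start. MPP genotype stayed at 0 calls, and the LT-HSC block could not be fitted. Deviations of same-numbered libraries from their group means correlated at −0.0676 to 0.0351. With 2 libraries in a group the deviations mirror each other. Whether same-numbered libraries share a pool or a batch therefore cannot be told from these values, and the labels do not say. Read depth, unknown here, limits every statement on an absent peak.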
